A study of Mus musculus with 8 samples.

Results

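Macrophages of the mouse paraventricular nucleus of the hypothalamus (PVN) were the 229 cells that the authors' deposited annotation calls Macrophages, out of 35672 cells in 8 single-cell libraries. They made up 0.642% of all cells (exact 95% interval 0.562 to 0.730) and were 15th of 17 annotated types by number, above Meningeal cells (131) and COP (115) and below Mixed_Endothelial (351) and Vascular cells (401). Together with 2513 Microglia they form the annotated immune cells, of which they are 8.35%. The annotation places them in 1 cluster and Microglia in 3 clusters. The values used are properties of whole cells, and levels of individual genes were not analysed here; the label could therefore not be set against its markers Mrc1 (the mannose receptor CD206), Pf4 (a chemokine) and Cd163 (a scavenger receptor for haemoglobin), and the type is called by the authors' name.

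Macrophages of the brain live mainly at its borders, in the perivascular spaces, the meninges and the choroid plexus, where they take up debris and present antigen. Microglia are the macrophages of the brain tissue itself, arise from yolk sac progenitors and maintain themselves by local division. Both cell types carry receptors for glucocorticoids, the hormones whose release the PVN controls.

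The mice were C57BL/6 females and males of 2 cohorts, with 1 library for every cohort, exposure and sex. In the CMS cohort (11 weeks of age) the stressed mice had 21 days of chronic mild stress (CMS) and then 15 min of acute restraint stress (ARS), and the control mice, whose library names also hold CMS, are labelled as unstressed. In the baseline cohort (10 weeks of age) the stressed mice had 15 min of restraint alone and the control mice none. Mice were killed 5 h after the restraint and perfused with cold buffer, and the dissected PVN was digested with papain before droplet capture, which reads the 3' ends of transcripts. How many mice a library holds is not given, so a p-value below measures the spread between libraries, and chronic stress is present only in libraries of the CMS cohort, which also differ from the baseline cohort in age. Libraries held 3523 to 5777 cells and 9924892 to 15760435 UMIs (unique molecular identifiers, each counting 1 captured transcript), with a median of 1845 to 2565 UMIs per cell. A cell barcode occurred in more than 1 library for 1452 cells (4.07%), among them 12 Macrophages, and no barcode belonged to Macrophages in both of its libraries.

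Macrophages were a small and fairly even part of every library. In the CMS cohort there were 32 in stressed females and 16 in stressed males, against 29 in control females and 25 in control males. In the baseline cohort there were 36 in stressed females and 31 in stressed males, against 32 in control females and 28 in control males. Numbers of this size bound the precision: the exact 95% interval of a single share spans from 0.260% to 0.736% for the 16 cells of the stressed CMS males and from 0.550% to 1.15% for the 31 cells of the stressed baseline males, and it covers counting error only.

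As a share of all cells, Macrophages ran from 0.454% to 0.809%, and the share did not pass the test for stress, sex or cohort. In the CMS cohort it was 0.642% in stressed and 0.640% in control females, and 0.454% in stressed and 0.661% in control males. In the baseline cohort it was 0.623% in stressed and 0.576% in control females, and 0.809% in stressed and 0.758% in control males. The lowest and the highest share thus both belonged to stressed males, and the stressed library had the higher share in 3 of the 4 pairs.

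Stressed libraries averaged 0.632% ± 0.145 and control libraries 0.659% ± 0.0757 (SD, n = 4 each). The fitted fold was 0.965 (95% interval 0.651 to 1.43; log2 -0.05, SE 0.29), with an adjusted p of 0.944 from the edgeR quasi-likelihood test, in which 0% of 17 types were called (0 also at an unadjusted p under 0.05). The direction turned without the stressed CMS males (log2 0.11) and without the control CMS females (log2 0.0041). Female libraries held 0.620% ± 0.0311 and male libraries 0.671% ± 0.157, with females lower in 3 of 4 pairs. The log2 fold for sex was -0.11 (SE 0.29, edgeR adjusted p = 0.960), and it turned to 0.018 without the control baseline females and to 0.015 without the stressed baseline males. In that test 5.88% of types were called, Tanycytes alone, which were higher in females (log2 1.06). The 4 female shares lay between 0.576% and 0.642%, within the range of the 4 male shares.

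CMS libraries held 0.600% ± 0.0974 and baseline libraries 0.692% ± 0.110 Macrophages (SD, n = 4 each), and 2 of the 4 pairs went each way. The log2 fold was -0.18 (SE 0.29, edgeR adjusted p = 0.641), and 17.6% of types were called. It rested largely on the stressed CMS males: without that library it was -0.011. For the difference of the stress effect between the sexes, the interaction term was 0.23 (log2, SE 0.61, edgeR adjusted p = 0.871), and between the cohorts -0.32 (SE 0.63, adjusted p = 0.918), with 0% of types called in each. Without the stressed CMS males these terms were -0.13 and 0.013.

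**Figure D1:**
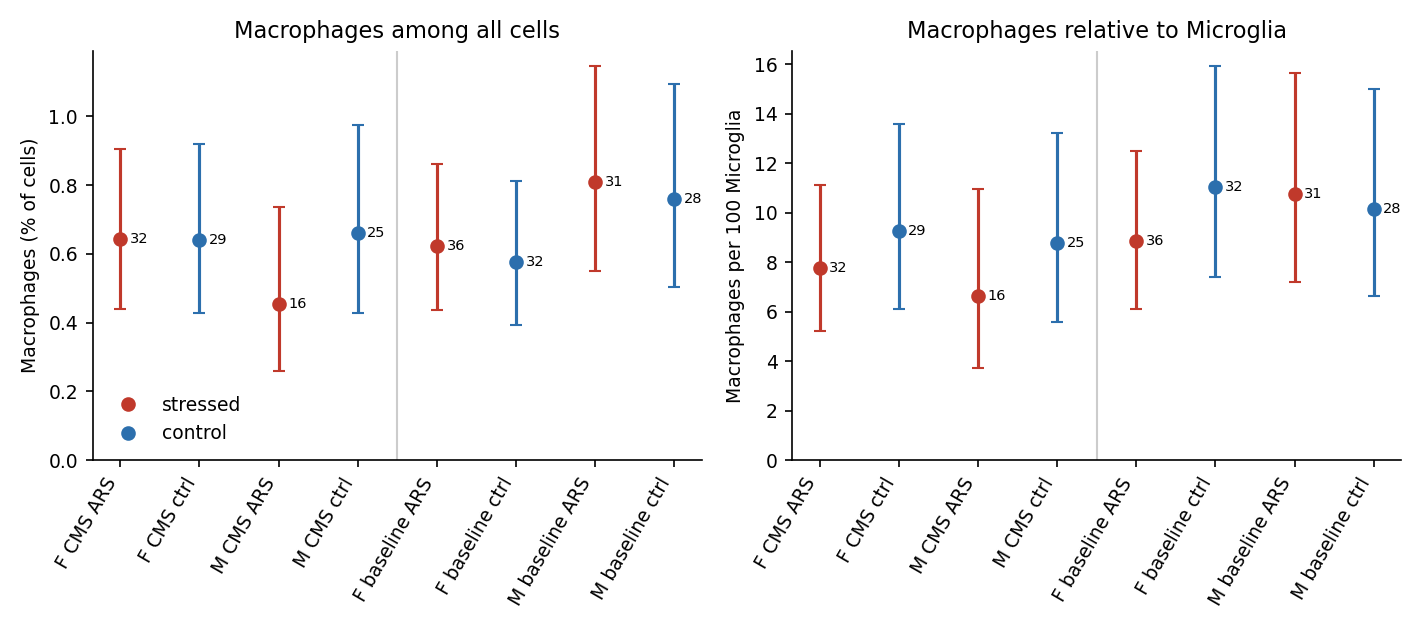
Macrophages as a percentage of all cells (left) and per 100 Microglia (right) in each of the 8 libraries (F, female; M, male; CMS libraries left of the grey line, baseline libraries right of it; ARS, stressed; ctrl, control). Points are single libraries, bars are exact 95% intervals for counting error, and the small numbers count the Macrophages; the 4 CMS libraries sit at 6.61 to 9.27 per 100 Microglia and the 4 baseline libraries at 8.87 to 11.0.

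Set against Microglia, the other immune type, Macrophages were fewer in the CMS library of every pair, although the difference did not pass the test. Over all libraries there were 9.11 Macrophages per 100 Microglia (95% interval 7.92 to 10.4), or 1 Macrophage to 10.97 Microglia. In the CMS cohort the ratio was 7.75 in stressed and 9.27 in control females, and 6.61 in stressed and 8.77 in control males. In the baseline cohort it was 8.87 in stressed and 11.0 in control females, and 10.8 in stressed and 10.1 in control males. Each CMS library was thus below the baseline library of the same sex and exposure, by ratios of 0.614 to 0.874, while the ranges of the cohorts overlapped.

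CMS libraries averaged 8.10 ± 1.18 and baseline libraries 10.2 ± 0.965 Macrophages per 100 Microglia (SD, n = 4 each). The fitted fold was 0.794 (95% interval 0.567 to 1.11, log2 -0.33, SE 0.21), with an edgeR adjusted p of 0.284 in a test that called 25% of 16 types. Macrophages were 8th of these types by p, and the called types were all fewer per Microglia in CMS libraries (log2 -1.86 to -0.89). Most of the 16 types had a negative log2 fold, so the direction was shared with many types that were not called. The share of Microglia itself had a log2 fold of 0.13 between the cohorts (edgeR adjusted p = 0.641). Stressed libraries averaged 8.50 ± 1.77 and control libraries 9.80 ± 0.998, and the stressed library was lower in 3 of 4 pairs (fold 0.862, interval 0.616 to 1.21, edgeR adjusted p = 0.974, 0% of types called). Female and male libraries averaged 9.23 ± 1.36 and 9.07 ± 1.84, with a log2 fold of 0.03 (SE 0.21, edgeR adjusted p = 0.995, 0% called). That fold turned to between -0.042 and -0.010 without the stressed CMS males, the control baseline males or the control CMS females. The interaction of sex and stress was -0.15 (log2, SE 0.55, edgeR adjusted p = 0.879, 0% called; 0.12 without the stressed baseline males), and that of cohort and stress was -0.21 (SE 0.52, adjusted p = 0.842, 0% called; -0.42 to -0.0023 with 1 library left out).

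The share of Macrophages did not follow that of any other type across the 8 libraries beyond the test. By Pearson's r the highest correlations were with Vascular cells (Pearson r = 0.65, Spearman rho = 0.43) and Mixed_Endothelial cells (r = 0.62, rho = 0.40), both at an adjusted exact permutation p of 0.385 for r and 0.566 for rho. By r the lowest were with GABA neurons (r = -0.80, rho = -0.69, adjusted exact permutation p = 0.241 and 0.513) and Glut neurons (r = -0.76, rho = -0.50, adjusted p = 0.241 and 0.566), in a family of 16 types with 0 called and 2 at an unadjusted p under 0.05. All of these rested in part or whole on the stressed male libraries of both cohorts, which have the lowest and the highest share: without them r was -0.08 for Vascular, 0.36 for Mixed_Endothelial, -0.26 for GABA and 0.07 for Glut. The order by rho was another, with Microglia highest and GABA neurons and Tanycytes (rho = -0.64, adjusted exact permutation p = 0.513) lowest. With Microglia r was 0.43 (rho 0.74, adjusted exact permutation p = 0.488 and 0.513) and 0.58 without those libraries. With the cohort means removed 0 types were called and 3 had an unadjusted p under 0.05 (Meningeal cells at r = -0.83, GABA neurons at -0.75 and Microglia at 0.71, Meningeal cells being named after the values were seen), the smallest adjusted exact permutation p being 0.0718. Shares of 1 library add up to a whole, so they are not free of each other.

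Within libraries, the median Macrophage held more UMIs than the median Microglia cell. In CMS females the Macrophage medians were 1850 in the stressed and 1969 in the control library, against Microglia medians of 1662 in the stressed and 1697 in the control library. In CMS males they were 1650.5 in the stressed and 2065 in the control library, against 1676.5 and 1731 in Microglia of the same libraries. In baseline females they were 1892 and 2677 in stressed and control Macrophages, against 1790 and 1779.5 in Microglia, and in baseline males 2602 and 2333.5 in Macrophages, against 1962 and 1871 in Microglia. Macrophages were the deeper type in 7 of the 8 libraries, and the stressed CMS males were the exception.

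The mean difference was 0.25 ± 0.19 on the log2 scale (SD, n = 8), 1.19-fold, with an exact two-sided sign-flip permutation p of 0.0156 and an adjusted p of 0.025 over 8 measures, where 0.0078 is the smallest p that 8 libraries can give. By the same test 80% of the 15 types with at least 10 cells in every library were deeper than Microglia, so this sets Macrophages beside most types. Measured by the mean of log2 UMIs instead of the median the difference was 0.03 (adjusted exact permutation p = 0.664), and without cells of a doublet score of 1 or more it was 0.34 (adjusted p = 0.075). The adjusted p was 0.05, no longer under the threshold, when any 1 library other than the stressed CMS males was left out, with differences of 0.20 to 0.27. With 1 library fewer and the stressed CMS males below 0, the exact test can give no smaller p. That loss therefore reflects the resolution of the test and says nothing about dependence on single libraries.

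Depth was more widely spread in Macrophages than in Microglia. Macrophages ran from 505 to 5794 UMIs, with quartiles of 1169 and 2847 around a median of 2113, against quartiles of 1372 and 2434 around 1765 in Microglia. Cells under 1000 UMIs were 47 of 229 Macrophages (20.5%) and 225 of 2513 Microglia (8.95%). The share of such cells was higher in Macrophages in 8 of 8 libraries, by 11.0 percentage points on average (2.63 to 28.8; exact permutation p adjusted over 2 added measures = 0.0156), as it was in 26.7% of types. The SD of log2 UMIs within a library was higher by 0.15 (7 of 8 libraries, adjusted exact permutation p = 0.0156), as it was in 40% of types. Both measures were added after the values had been seen.

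**Figure D2:**
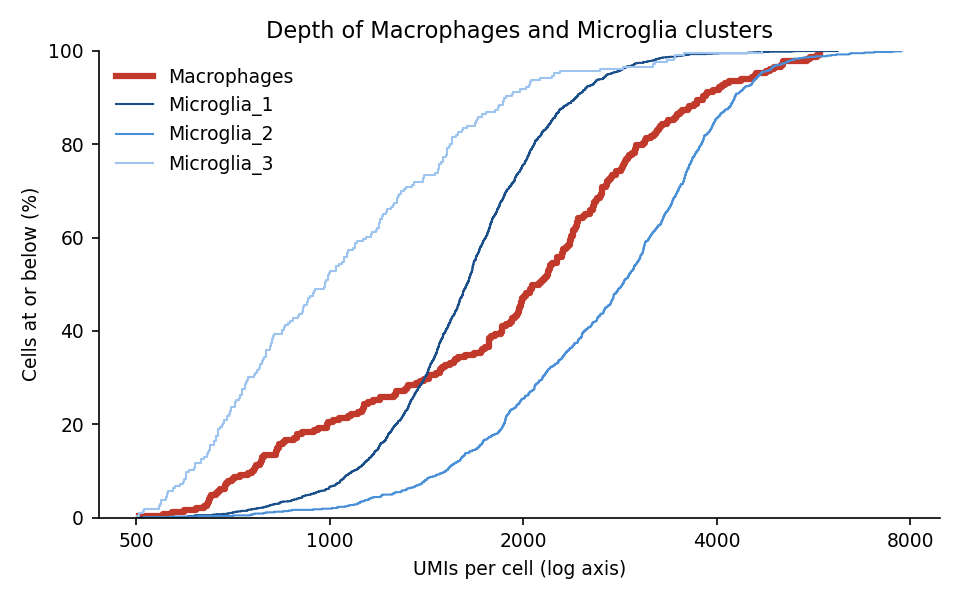
Percentage of cells at or below a given number of UMIs per cell (log axis), for Macrophages and each Microglia cluster over all libraries. The Macrophage line runs from among the shallow cells of Microglia_3 (median 983 UMIs) to among the deep cells of Microglia_2 (median 2851.5), with 20.5% of its cells under 1000 UMIs.

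Pooled over libraries, the shallowest Macrophages had a larger mitochondrial share than the rest. The 47 Macrophages under 1000 UMIs had a median of 761 UMIs, 431 genes and a mitochondrial share of 3.39%, against 2381 UMIs, 1152.5 genes and 2.13% in the 182 others. Of the 47, 14 came from the stressed baseline females, and the division was not tested within libraries. In Microglia the same division gave 2.0% below and 1.43% at or above 1000 UMIs. Over cells grouped by the quartiles of Macrophage UMIs, from the shallowest to the deepest group, the median mitochondrial share was 3.24%, 2.08%, 2.0% and 2.25% in Macrophages, and 1.55%, 1.20%, 1.51% and 2.38% in Microglia of the same ranges of UMIs. Over cells, UMIs and mitochondrial share had a Spearman rho of -0.21 in 229 Macrophages and 0.26 in 2513 Microglia, a description only, since cells share libraries and both measures contain the same UMI total.

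The number of genes detected per cell did not separate the types beyond the spread of libraries. Library medians were 853 to 1361 genes in Macrophages, against 927 to 1050 in Microglia, and Macrophages were higher in 7 of 8 libraries, with the stressed CMS males again the exception. The mean difference was 0.12 ± 0.17 on the log2 scale (SD, n = 8; adjusted exact permutation p = 0.116), a measure on which 73.3% of types were higher than Microglia. It was 0.21 (adjusted p = 0.0125) without cells under 1000 UMIs, 0.15 (adjusted p = 0.0208) without the stressed CMS males, and -0.04 (adjusted p = 0.656) with means of log2 genes.

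The number of genes at a given depth depended on how depth was taken into account. Set against a line of log2 genes on log2 UMIs fitted to the Microglia of the same library, the median Macrophage differed by -0.05 on the log2 scale (SD 0.02), or by -3.74% in the number of genes, and was lower in 8 of 8 libraries (range -0.10 to -0.03; adjusted exact permutation p = 0.0156), and 13.3% of types lay below Microglia. It was -0.01 (adjusted p = 0.177) without cells under 1000 UMIs. The sign turned when each Macrophage was set beside the Microglia cell of its library nearest in UMIs, a comparison added after the values had been seen: the difference was then 0.0095 (log2, adjusted exact permutation p = 0.727), with Macrophages higher in 4 of 8 libraries.

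Mitochondrial transcripts, whose share rises in damaged cells and also differs with a cell type's metabolism, took a larger part of the UMIs in the median Macrophage than in the median Microglia cell of each library. In the CMS cohort the median share was 1.77% and 1.92% in stressed and control female Macrophages, against 1.13% and 1.37% in their Microglia, and 2.0% and 2.15% in stressed and control male Macrophages, against 1.44% and 1.29%. In the baseline cohort it was 2.47% and 2.57% in stressed and control female Macrophages, against 1.68% and 1.61% in their Microglia, and 2.46% and 3.09% in stressed and control male Macrophages, against 1.62% and 1.53%. The lowest of the Macrophage library medians exceeded the highest of the Microglia library medians, while single cells of the types overlapped, with quartiles of 1.74% and 3.22% in Macrophages and of 0.907% and 2.37% in Microglia.

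The difference averaged 0.842 ± 0.325 percentage points (SD, n = 8) and was positive in 8 of 8 libraries (adjusted exact permutation p = 0.0156). It was 0.639 points (adjusted exact permutation p = 0.0234) against Microglia matched on UMIs. There the control baseline females went the other way, at 2.57% in Macrophages and 2.69% in matched Microglia. By cluster, the pooled median was 1.18% in Microglia_1, 2.08% in Microglia_2 and 2.94% in Microglia_3, so the Macrophage median of 2.27% lay above the first, close to the second and below the third. Macrophages were nonetheless at the low end: 100% of the 15 types had a higher share than Microglia, and by pooled medians Macrophages were the second lowest of 17 types, between Microglia (1.46%) and Pericytes (2.53%), which were followed by Meningeal cells (2.64%). A share of 10% or more was found in 5 Macrophages (2.18%) and 57 Microglia (2.27%).

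**Figure D3:**
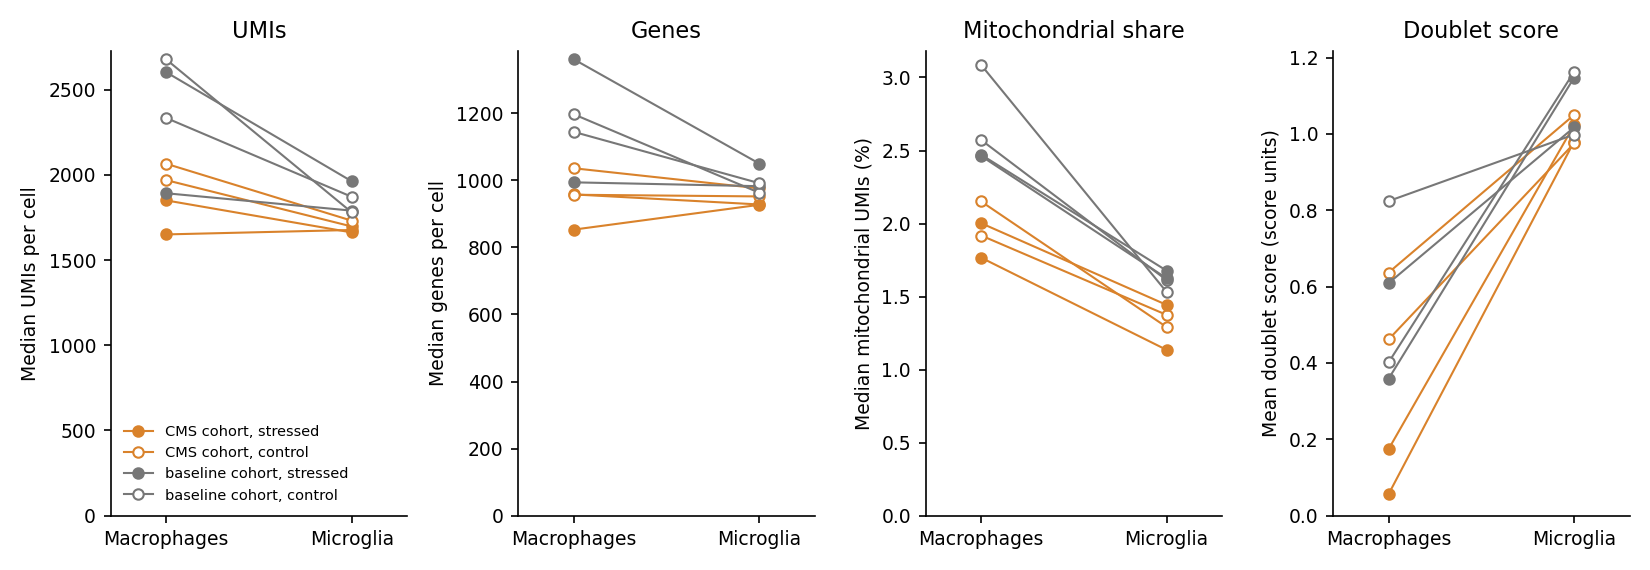
Median UMIs per cell, median genes per cell, median mitochondrial percentage and mean doublet score of Macrophages (left points) and Microglia (right points) in the 8 libraries, each library joined by a line, coloured by cohort, with filled points for stressed and open points for control libraries. Mitochondrial share is higher and doublet score lower in Macrophages in 8 of 8 libraries, and UMIs and genes are higher in 7 of 8.

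The doublet score was lower in Macrophages than in Microglia in every library. Such scores are meant to be higher where a droplet looks like a mixture of several cells; which tool made it is not stated in the labels or the table. In the CMS cohort a score of exactly 0 was given to 87.5% and 65.5% of stressed and control female Macrophages, against 35.1% and 35.8% of their Microglia, and to 93.75% and 72% of stressed and control male Macrophages, against 40.5% and 38.2%. In the baseline cohort it was given to 61.1% and 53.1% of stressed and control female Macrophages, against 40.6% and 43.1% of their Microglia, and to 74.2% and 71.4% of stressed and control male Macrophages, against 28.5% and 32.6%. More than 50% of Macrophages and less than 50% of Microglia were at 0 in every library.

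Over all libraries 162 of 229 Macrophages (70.7%) and 926 of 2513 Microglia (36.8%) had a score of 0. The difference averaged 35.5 ± 15.2 percentage points (SD, n = 8; 10.0 to 53.3), higher in 8 of 8 libraries (adjusted exact permutation p = 0.0156), as in 20% of types: Meningeal cells (88.5% at 0), Macrophages and Neurons_mixed (64.2%). The mean score minus that of Microglia was -0.604 ± 0.264 score units and was below 0 in 8 of 8 libraries (adjusted exact permutation p = 0.0156), as in 26.7% of types. A score of 1 or more was held by 58 Macrophages (25.3%) and 1412 Microglia (56.2%), and a score of 2 or more by 10 (4.37%) and 367 (14.6%).

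The score moved with depth in both types, and the separation was present where depth was matched. Over cells grouped by the quartiles of Macrophage UMIs, from the shallowest to the deepest group, 98.2%, 91.2%, 63.2% and 31.0% of Macrophages were at 0, against 98.9%, 36.6%, 11.9% and 8.35% of Microglia of the same ranges. Below the first quartile of Macrophage depth both types were thus almost wholly at 0, and above it Macrophages had the higher share in each group. Against Microglia of the same library matched on UMIs, the share at 0 was higher by 36.3 percentage points (adjusted exact permutation p = 0.0156). Among the Microglia clusters, 34.7% of Microglia_1, 24.1% of Microglia_2 and 100% of the 206 shallow cells of Microglia_3 were at 0, and against Microglia_1 alone the Macrophage share was higher by 37.4 points (adjusted exact permutation p = 0.0125).

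**Figure D4:**
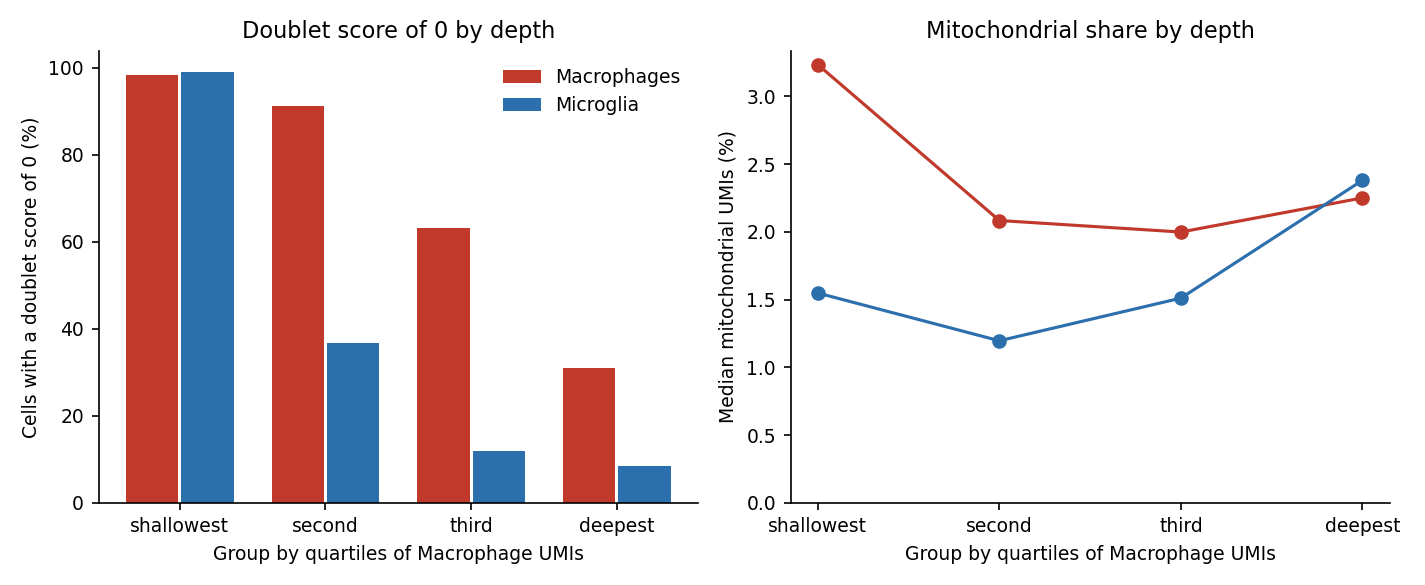
Percentage of cells with a doublet score of 0 (left) and median mitochondrial percentage (right) of Macrophages and Microglia, over the 4 groups formed by the quartiles of Macrophage UMIs per cell, all libraries pooled. Both types are near 100% at a doublet score of 0 in the shallowest group, and in the deepest group 31.0% of Macrophages and 8.35% of Microglia are; the mitochondrial shares differ most in the shallowest group (3.24% and 1.55%) and are 2.25% and 2.38% in the deepest.

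**Figure D5:**
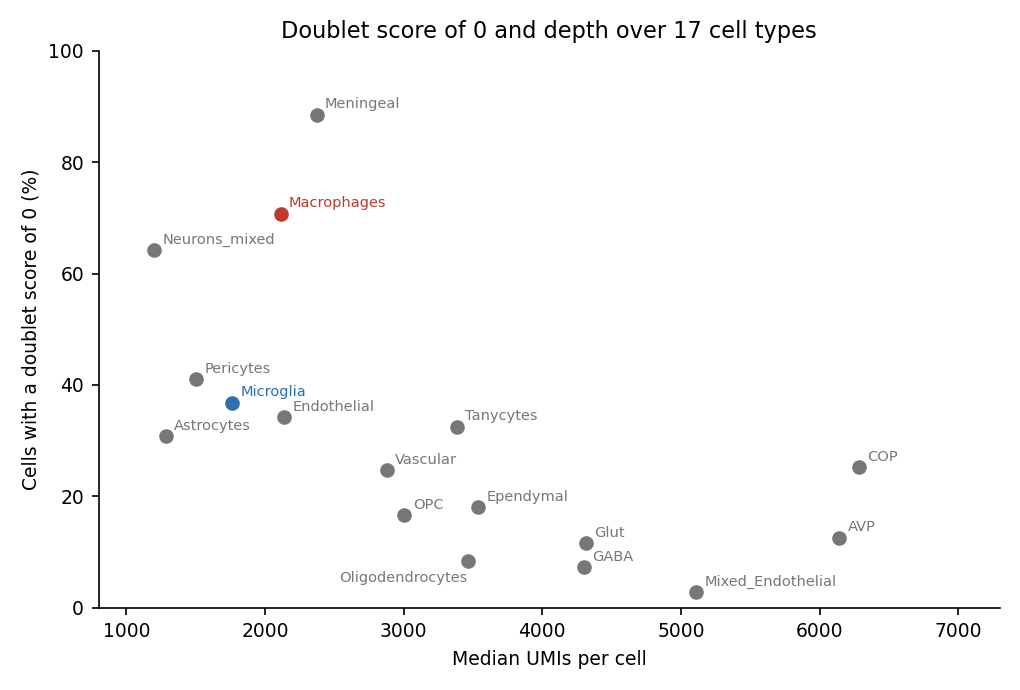
Percentage of cells with a doublet score of 0 against the median UMIs per cell for the 17 annotated types, all libraries pooled, with Macrophages in red and Microglia in blue. Macrophages (2113 UMIs, 70.7%) stand second from the top below Meningeal cells (2372 UMIs, 88.5%), above Neurons_mixed (1200 UMIs, 64.2%) and well above Endothelial cells of nearly their depth (2138 UMIs, 34.2%).

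Scores for the S phase and the G2/M phase of the cell cycle did not separate the types. The S score of Macrophages was higher than that of Microglia by 0.0032 ± 0.0068 (SD, n = 8; 5 of 8 libraries, adjusted exact permutation p = 0.219), and 46.7% of types were higher. The G2/M score was higher by 0.0098 ± 0.0124 (6 of 8 libraries, adjusted exact permutation p = 0.0729), and 86.7% of types were higher. Against Microglia_1 alone both differences passed (0.0051 and 0.014, adjusted p = 0.0391 and 0.0357), as did that of G2/M against Microglia matched on UMIs (0.013, adjusted p = 0.0156). The mean scores of Macrophages, -0.00014 for S and -0.015 for G2/M, were 8th and 11th from the top of 17 types, and no Macrophage exceeded 0.128 for S or 0.130 for G2/M, against maxima of 0.749 and 1.31 in Microglia. No cycling was read from these scores.

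Between the cohorts, Macrophages of CMS libraries were shallower and held fewer genes and a smaller mitochondrial share than those of baseline libraries. Library medians averaged 1884 ± 179 UMIs in the CMS and 2376 ± 355 in the baseline cohort (SD, n = 4 each), lower in 4 of 4 pairs with overlapping ranges. The log2 fold was -0.33 (SE 0.11, 1.25-fold fewer), with a limma adjusted p of 0.0436. In the same test 18.8% of 16 types were called in either direction. GABA (log2 0.34) and Glut neurons (log2 0.44) were deeper in CMS libraries. Meningeal cells were shallower by nearly as much as Macrophages (log2 -0.29, limma adjusted p = 0.0638). Macrophages alone were called as shallower, by a threshold that Meningeal cells just missed. The call was lost without any of 5 libraries (adjusted p = 0.0650 to 0.280), namely the control baseline females, the stressed CMS females, the control CMS males and both stressed male libraries (log2 -0.27 without the stressed CMS males and -0.22 without the stressed baseline males), and it was lost with each matched pair of libraries as a block (adjusted p = 0.0550). It was likewise lost when limma used a trended, robust prior (adjusted p = 0.141).

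The median number of genes averaged 951 ± 75.1 in the CMS and 1174 ± 151 in the baseline cohort, lower in 4 of 4 pairs. Its log2 fold was -0.30 (SE 0.08, 1.23-fold fewer, limma adjusted p = 0.00349). Limma's prior carried 146 degrees of freedom here, so this error rests mostly on a spread pooled over 16 types. In either direction 25% of types were called, GABA and Glut neurons and Meningeal cells beside Macrophages. Without the stressed baseline males the Macrophage fold was -0.19 (limma adjusted p = 0.137), without the stressed CMS males -0.22 (0.0940) and without the control CMS males -0.32 (0.0617).

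The median mitochondrial share averaged 1.96% ± 0.161 in the CMS and 2.65% ± 0.296 in the baseline cohort (SD, n = 4 each). The CMS libraries, at 1.77% to 2.15%, did not overlap the baseline libraries, at 2.46% to 3.09%. Microglia of the cohorts did not overlap either, at 1.13% to 1.44% in the CMS and 1.53% to 1.68% in the baseline libraries. Overlap was not examined in the other types. The Macrophage difference was -0.69 percentage points (SE 0.11, limma adjusted p = 0.0213), and 18.8% of types were called in either direction, Endothelial and Ependymal cells beside Macrophages. The adjusted p lay at 0.0544 to 0.119 without any 1 of 5 libraries, the 2 female baseline libraries and the CMS libraries other than the stressed males, at differences of -0.65 to -0.73 points.

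Differences in Microglia had the same sign and were not called, and the difference between the types was not resolved. Microglia medians averaged 1692 ± 29.9 UMIs in the CMS and 1851 ± 84.8 in the baseline cohort, and their mitochondrial share 1.31% ± 0.133 and 1.61% ± 0.0605 (SD, n = 4 each). Both were lower in CMS libraries in 4 of 4 pairs, with no overlap between the cohorts. Taken as Macrophages minus Microglia of the same library, the cohort difference in UMIs was -0.20 on the log2 scale (SE 0.11, limma adjusted p = 0.327; 13.3% of 15 types called) and that in mitochondrial share -0.39 points (SE 0.15, adjusted p = 0.146; 26.7% called). The control libraries, labelled as unstressed in both cohorts, showed the same directions: the Macrophage mitochondrial share was 1.92% in CMS and 2.57% in baseline control females, and 2.15% in CMS and 3.09% in baseline control males. The fitted cohort differences take in the stressed CMS libraries. Chronic stress, the age of the mice and the making of the libraries cannot be told apart in them, and none was tested.

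Stress and sex moved none of these medians past the test. Macrophages had 1999 ± 416 UMIs in stressed and 2261 ± 317 in control libraries (log2 -0.19, SE 0.11, limma adjusted p = 0.832, 0% of types called), and 1042 ± 221 and 1084 ± 108 genes (log2 -0.07, SE 0.08, adjusted p = 0.887, 0% called). The mitochondrial share was 2.18% ± 0.350 in stressed and 2.43% ± 0.513 in control libraries, lower in 4 of 4 pairs (-0.26 points, SE 0.11, limma adjusted p = 0.345, 0% called). Against Microglia the stress effect was -0.19 in log2 UMIs (limma adjusted p = 0.739, 0% called) and -0.27 points in mitochondrial share (adjusted p = 0.541, 0% called). For genes the direction turned to 0.0018 without the stressed baseline females and to 0.0049 without the stressed CMS males.

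Female Macrophages had 2097 ± 390 UMIs and 1027 ± 115 genes, against 2163 ± 406 UMIs and 1099 ± 212 genes in males (SD, n = 4 each). The log2 folds were -0.04 (SE 0.11, limma adjusted p = 0.713, 0% of types called) and -0.08 (SE 0.08, adjusted p = 0.488, 6.25% called). That in UMIs turned to 0.059 without the stressed baseline females and to 0.068 without the stressed baseline males, and that in genes to 0.025 without the stressed baseline males. The mitochondrial share was 2.18% ± 0.399 in females and 2.43% ± 0.480 in males (-0.24 points, SE 0.11, limma adjusted p = 0.367, 0% called). Relative to Microglia, females differed from males by 0.02 in log2 UMIs (limma adjusted p = 0.921, 0% called; -0.05 to -0.01 without the control baseline females, the control baseline males or either stressed CMS library) and by -0.22 points in mitochondrial share (adjusted p = 0.558, 0% called).

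The share of Macrophages with a doublet score of 0 passed the test between the cohorts and not for stress or sex, a comparison added after the values had been seen. It averaged 79.7% ± 13.1 in the CMS and 65.0% ± 9.70 in the baseline cohort, higher in 4 of 4 pairs (14.7 points, SE 3.98, limma adjusted p = 0.0219). Of 16 types 18.8% were called in either direction, Meningeal cells and Neurons_mixed beside Macrophages. With matched pairs as a block the adjusted p was 0.128, and without any 1 of 4 libraries (the stressed CMS females, the stressed baseline libraries and the control baseline females) it was 0.0792 to 0.125, at 11.5 to 15.0 points. The shallower depth of CMS Macrophages, given above, moves with this share, and its part in the result was not tested.

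Stressed libraries had 79.1% ± 14.5 and control libraries 65.5% ± 8.77 of Macrophages at 0, higher in 4 of 4 pairs by 2.76 to 22.0 points (13.6 points, SE 3.98, limma adjusted p = 0.104, 0% of types called), whereas Microglia had 36.2% ± 5.75 and 37.4% ± 4.43. Females had 66.8% ± 14.7 and males 77.8% ± 10.7, lower in 4 of 4 pairs (-11.0 points, SE 3.98, limma adjusted p = 0.296, 0% called). Relative to Microglia, the differences were 14.9 points for stress (limma adjusted p = 0.0797), -14.7 points for sex (0.0861) and 13.5 points for cohort (0.137), with 0% of 15 types called in each. The calls for stress and sex depended on the setting: with a trended, robust prior limma gave adjusted p of 0.00528 and 0.0497, and relative to Microglia the pair block gave 0.00400 for stress. For stress the adjusted p was 0.00198 without the control baseline males, and relative to Microglia it was 0.00491 without that library and 0.0401 without the stressed baseline females. For sex it was 0.0234 without the control CMS males, and relative to Microglia it was 0.00334 without that library and 0.0228 without the stressed CMS females. For cohort, relative to Microglia, it was 0.0109 without the control baseline males and 0.0138 without the control CMS males. Of 10 alternatives each, 8 stayed uncalled for stress and 8 for sex. Relative to Microglia 7 did for stress, 8 for sex and 8 for cohort. The largest limma adjusted p with 1 library left out was 0.313 for stress and 0.478 for sex. Relative to Microglia it was 0.669 for stress, 0.651 for sex and 0.630 for cohort.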

How the data were processed

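Cells were assigned to 8 libraries by the experiment, condition and sex given for each cell in the deposited table, with 0 cells unmapped. Per the submitters' processing notes, the authors used Cell Ranger 3.0.2 and 3.1.0, Seurat 3.1.3 and the mm10 genome; for filters, the doublet tool and the way cells were annotated, the step is not given in the sources used. If the annotation drew on depth or the scores, tests against Microglia are not independent of it. UMIs and genes per cell are counts as deposited. The mitochondrial share was deposited as a fraction (times UMIs, off a whole number by over 1e-06 in 0 cells) and turned here into percent. The values for doublets, S phase and G2/M phase are scores as deposited by the authors. No cell was removed and no doublet caller was run.

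Libraries, not cells, were the replicates, 1 per combination of sex, cohort and exposure. Numbers of cells were tested with edgeR 4.0.16 (R 4.3.3; quasi-likelihood F test, types of at least 80 cells, all cells or the Microglia of a library as its size, no abundance trend) and library medians or percentages with limma 3.58.1 (types of at least 10 cells in each library), all 8 libraries entering each fit and exposure, sex and cohort being its terms. For shares, edgeR's prior carried 71.9 degrees of freedom, and for their interactions it was infinite, so these errors rest mostly on the spread pooled over types. The same holds for limma, whose prior carried 15.0 degrees of freedom for UMIs and 146 for genes. Relative to Microglia it was infinite for UMIs and 59.0 for the percentage at a doublet score of 0. Benjamini-Hochberg adjustment ran over types, or over 8 measures for exact sign-flip tests of Macrophages minus Microglia, with a threshold of 0.05. Background percentages count types past it, adjusted over types. They count the direction named for sign-flip tests, and either direction for edgeR and limma. Exact intervals and permutations used scipy 1.17.1. Alternatives were DESeq2 1.42.0, other summaries, filters on UMIs and doublet score, a block for matched pairs and leaving out each library. Beside Microglia, types were named if next above or below Macrophages in an order, or if highest or lowest in correlation of share. They were also named if called where Macrophages were. Endothelial cells in the map of types, Tanycytes, and Meningeal cells beside the cohort difference in UMIs were named after their values were seen. Members, lists and tests were chosen with earlier results of these data known. The sign-flip test and the edgeR and limma tests of stress were tried on simulated data, and the other tests were not.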

Additional observations from a re-analysis of the deposited data

Results flagged for a closer look

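In 164 checks, 11 values of Macrophages stood apart. In 9 of them a library lay far from the others of its group by Dixon's test, which chance gives in about 1 of 20 groups. Several such flags are therefore to be expected over this many checks. The stressed CMS males had the lowest share of Macrophages among the CMS libraries (0.454%, against 0.640% to 0.661% in the other 3), the highest percentage at a doublet score of 0 among male libraries (93.75%, against 71.4% to 74.2%) and the only negative difference from Microglia in the SD of log2 UMIs among CMS libraries (-0.030, against 0.12 to 0.15). These values rest on 16 cells. The control baseline females had the deepest Macrophages among female libraries, with a median of 2677 UMIs, against 1850 to 1969, and 1197 genes, against 957 to 994, and the largest difference from Microglia in genes (0.31 on the log2 scale, against 0.0076 to 0.046).

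Among baseline libraries, the stressed males had the highest mean S score (0.0080, against -0.0044 to -0.0035), and the stressed females exceeded Microglia most in cells under 1000 UMIs (28.8 percentage points, against 2.63 to 7.04). The control baseline males had the largest difference from Microglia in mitochondrial share of all 8 libraries (1.55 points, against 0.544 to 0.959).

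In the other two, the stressed library differed from its control one way in both female pairs and the other way in both male pairs. Stressed minus control was 13.9 percentage points in females and -4.54 in males for Macrophages under 1000 UMIs, and 0.011 in females and -0.015 in males for the mean G2/M score. With only 2 pairs in each sex, opposite directions also arise often by chance. These differences between the sexes were not tested.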

How the results depend on the processing

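Higher mitochondrial share, lower doublet score and more cells at a doublet score of 0 in Macrophages than in Microglia kept their direction and their side of the threshold under every alternative run for them, with ranges of 0.639 to 1.10 percentage points, -1.16 to -0.090 score units and 11.3 to 39.2 points. The value of -1.16 score units comes from medians in place of means, and an alternative filtered on the doublet score itself. The mean score and the cells at 0 describe the same score, so they are not separate results. Over all results, 372 of 444 alternative values kept their direction and side of the threshold, but most results were uncalled at the outset. Of the results called between cohorts, UMIs kept 4 of 11 alternatives, genes 8 of 11 and mitochondrial share 6 of 11. The percentage at a doublet score of 0 kept 5 of 10. The difference from Microglia in UMIs kept 3 of 12, and 7 of its losses came with 1 library left out, where the exact test could give no smaller p. The cause of a change was not tested.

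The log2 fold of the share between cohorts turned to 0.013 with DESeq2 and to 0.00075 without Astrocytes and neurons. Between cohorts, log2 UMIs stayed at -0.33 but lost the call with a trended, robust prior and with the pair block, as did the percentage at a doublet score of 0 (14.7 points) with the block. With trended, robust moderation that percentage gained a call for stress (13.6) and sex (-11.0), and relative to Microglia it gained one for stress (14.9) with the block. With means in place of medians, females minus males relative to Microglia turned to -0.062 in log2 UMIs and 0.038 points in mitochondrial share. Against Microglia, means of log2 values gave 0.033 for UMIs, no longer called, and -0.035 for genes, reversed. UMIs lost the call without cells of a doublet score of 1 or more (0.34). Without cells under 1000 UMIs genes gained it (0.21) and genes at equal UMIs lost it (-0.01). Against Microglia_1 genes (0.19), the S score (0.0051) and the G2/M score (0.014) gained it, as did G2/M against Microglia matched on UMIs (0.013).

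Leaving out 1 library moved the log2 fold of the share to between -0.18 and 0.11 for stress, -0.28 and 0.018 for sex, -0.31 and -0.011 for cohort, -0.13 and 0.70 for sex by stress and -0.76 and 0.013 for cohort by stress. Per Microglia it was -0.042 to 0.14 for sex and -0.37 to 0.12 for sex by stress. Log2 UMIs were -0.11 to 0.068 for sex, -0.43 to -0.22 for cohort and -0.048 to 0.11 for sex relative to Microglia. Log2 genes were -0.18 to 0.0049 for stress, -0.16 to 0.025 for sex and -0.37 to -0.19 for cohort. The mitochondrial share was -0.78 to -0.59 points for cohort. The percentage at a doublet score of 0 was 10.4 to 17.5 for stress, -14.3 to -7.15 for sex and 11.5 to 18.6 for cohort, and relative to Microglia 9.86 to 19.9, -19.8 to -9.67 and 8.51 to 18.6. Against Microglia, the difference was 0.20 to 0.29 in log2 UMIs, 0.080 to 0.15 in log2 genes and 0.0079 to 0.013 in G2/M score.

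Library medians rest on 16 to 36 Macrophages each, and with 4 pairs or 8 libraries small differences were not resolved at this depth.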
